A study of Enchytraeus albidus with 15 samples.

Results

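The comparison described here set 3 arrays from worms kept in soil with silver nanoparticles (Ag-NP) at 200 mg/kg against 3 arrays from worms kept in soil with silver nitrate (AgNO3) at 200 mg/kg. These 6 arrays were chosen by their labels out of 15 in the study. The animal was the potworm Enchytraeus albidus, a whitish oligochaete that lives in soil and rotting plant matter. Adults with a developed clitellum, the glandular band that marks sexual maturity, spent 2 days in spiked or clean OECD soil, an artificial soil used for toxicity tests. The other 9 arrays came from worms in soil with Ag-NP at 100 mg/kg, in soil with AgNO3 at 100 mg/kg and in clean soil, the control, with 3 arrays each. Each array held RNA from whole bodies, extracted together from the worms of 1 biological replicate, so a lower level in one tissue and a smaller share of that tissue cannot be told apart. The size and coating of the particles, and whether the concentrations refer to silver or to the compound, are not given in the sources used here.

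Silver nitrate is a soluble salt that releases silver ions as it dissolves, while metallic nanoparticles release ions more slowly as their surface oxidises. Silver ions bind strongly to thiol groups of proteins and of glutathione, and in animals they are known for disturbing ion transport and for inducing metallothioneins and oxidative stress responses. Setting particles beside the salt at one nominal concentration asks whether transcript levels depend on the form in which the silver is given.

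The array carried 1035 probes with 14 or 15 spots each. The files used here do not pair the probe names with genes, so no role is given for any transcript. Levels are given as log2 of the processed spot intensity relative to the array's 75th percentile over the 227 probes that were well above background on all 15 arrays. A probe counted as well above background where the scanner software marked a share of 0.5 or more of its spots so. Of the 1035 probes, 396 were well above background on all 3 arrays of either form at 200 mg/kg, and these are the probes described. The fit ran on 446 probes, the other 50 of which passed only through the remaining 3 groups. The other 589 probes were left out as too dim.

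The arrays of both forms were of similar brightness, and 1 AgNO3 array stood apart in background. The 75th percentile of the processed intensity over all probe spots was 16.9, 24.2 and 31.1 with Ag-NP and 21.9, 23.1 and 20.9 with AgNO3 (replicates 1, 2 and 3). The number of probes well above background was 427, 469 and 441 with Ag-NP, and 477, 388 and 251 with AgNO3. AgNO3 replicate 3 also had the highest negative-control spread in the study, 12.6 against 2.49 to 5.35 on the Ag-NP arrays and 3.70 to 4.09 on the other AgNO3 arrays. The mean number of detected probes, 446 ± 21.4 with Ag-NP and 372 ± 114 with AgNO3 (SD, n = 3 each), gave p = 0.4 in an exact two-sided permutation test, which cannot go below 0.1 at this size. Whether background took part in the results was not tested, and values without AgNO3 replicate 3 stand with the results. The slides held the groups unevenly. Slide 1 held Ag-NP replicates 1 and 2 with AgNO3 replicate 1, slide 3 held replicate 3 of each, and AgNO3 replicate 2 was the one array of the 6 on slide 2. Grouped by scan time, Ag-NP replicates 1 and 2 were in scan 4 and AgNO3 replicates 1 and 2 in scans 2 and 3. Only the replicate 3 arrays of the forms shared a scan, scan 5, so form and scan can hardly be told apart.

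At 200 mg/kg the silver forms differed in 4 probes, with Ag-NP higher in 2 and lower in 2 (limma, Benjamini-Hochberg adjusted p below 0.05). They made up 0.897% of the 446 tested probes (0.448% in each direction), and all 4 were among the 396 described. Contig11 and P2_5A_T7_1328919 were higher with Ag-NP, with measured differences of 3.09 ± 0.60 and 2.05 ± 0.43 log2 units (SE). Their AgNO3 means rest on 1 and on 0 of 3 arrays well above background, and with each undetected array set no lower than its lowest signal well above background, the floor, the differences were 2.09 and 0.84. Ealb_Met_P8_C1_SP6_2090691 and Ealb_Met_P6_D3_SP6_2090528 were lower with Ag-NP, with differences of -2.64 ± 0.41 and -1.85 ± 0.39 log2 units (SE). All 4 lay in the dimmer part of the range: by mean level over all arrays, 21.8% to 46.0% of the tested probes were dimmer. After a normexp background correction with an offset of 50, which exceeds nearly all signals of these probes at 200 mg/kg, none passed, the differences shrank to 0.31, -0.89 and -0.64 for Contig11, Ealb_Met_P8_C1_SP6_2090691 and Ealb_Met_P6_D3_SP6_2090528, and that of P2_5A_T7_1328919 turned to -0.0178. The split between directions moved to 9 higher and 18 lower after quantile normalization, and to 10 higher and 1 lower in the authors' deposited values, which also lack 20.6% to 44.3% of the spot values of an array.

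**Figure D1:**
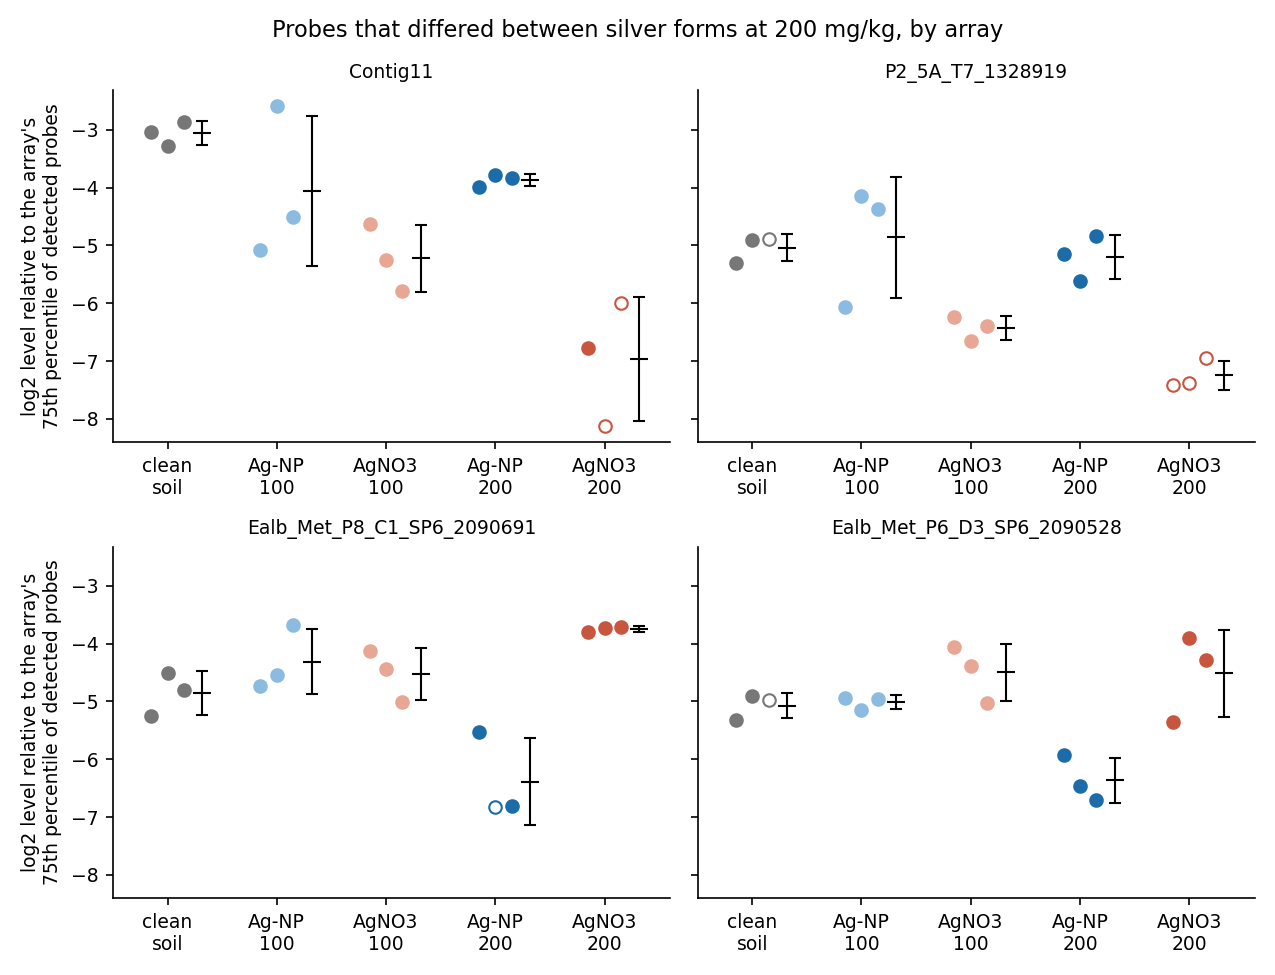
Log2 level of the 4 probes on each of the 15 arrays, with filled circles for arrays on which the probe was well above background and open circles for the others, and bars for the mean and SD of 3 arrays. In each panel, as measured, the 3 Ag-NP 200 mg/kg arrays lie wholly above or wholly below the 3 AgNO3 200 mg/kg arrays. The 4 probes were chosen by the comparison of these arrays, and the forms did not overlap in 46.9% of the 446 tested probes.

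Contig11 was well above background on all 3 Ag-NP arrays and on 1 of 3 AgNO3 arrays. Its processed intensity was 28.8, 47.1 and 61.6 with Ag-NP at 200 mg/kg, and 5.91, 1.46 and 8.66 with AgNO3 at 200 mg/kg. Its log2 levels were -3.99, -3.79 and -3.84 with Ag-NP, against -6.78, -8.13 and -6.00 with AgNO3. The Ag-NP arrays were close to each other, and the groups did not overlap. The measured difference amounted to 8.54-fold (95% interval 3.51 to 20.8, adjusted p = 0.0309), and to 4.25-fold with the 2 undetected AgNO3 arrays at the floor. Without AgNO3 replicate 3 the measured difference was 3.58 log2 units (adjusted p = 0.023).

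P2_5A_T7_1328919 was well above background on all 3 Ag-NP arrays and on none of the AgNO3 arrays at 200 mg/kg. Its processed intensity was 12.9, 13.3 and 30.8 with Ag-NP, against 3.82, 2.45 and 4.46 with AgNO3. On the AgNO3 arrays none of its 13 spots per array was marked well above background. As measured, its log2 levels of -5.15, -5.61 and -4.84 with Ag-NP lay above those of -7.41, -7.38 and -6.95 with AgNO3. The mean with Ag-NP was at least 1.79-fold higher than with AgNO3 (limma, adjusted p = 0.0345 for the measured difference). This bound sets the Ag-NP mean against the lowest signal measured well above background on each AgNO3 array. The probe's own signal stood in where that was higher. By array the floor was -7.02, -6.07 and -5.03 (AgNO3 replicates 1, 2 and 3). The floor of replicate 3 lay above Ag-NP replicates 1 and 2, so at the floor the arrays of the forms overlapped. The bound is one of means and carries no error. The measured means were -5.20 ± 0.39 with Ag-NP and -7.25 ± 0.25 with AgNO3 (SD, n = 3 each). Without AgNO3 replicate 3 the measured difference was 2.20 log2 units and did not pass (adjusted p = 0.0736).

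Ealb_Met_P8_C1_SP6_2090691 had the smallest p of all tested probes. Its processed intensity was 9.94, 5.71 and 7.91 with Ag-NP at 200 mg/kg, against 46.6, 30.6 and 42.4 with AgNO3 at 200 mg/kg. Its log2 levels were -5.52, -6.83 and -6.80 with Ag-NP, and -3.80, -3.74 and -3.71 with AgNO3. The AgNO3 arrays were close to each other, and every Ag-NP array was lower. The level was 6.23-fold lower with Ag-NP (limma, adjusted p = 0.00677), where 2 of 3 arrays measured it well above background. On Ag-NP replicates 1, 2 and 3, 15 of 15, 7 of 15 and 7 of 14 spots were so marked. Replicate 3 thus lay at the cut-off of 0.5 and replicate 2 just below it. It passed without AgNO3 replicate 3 too (-2.62 log2 units, adjusted p = 0.023).

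Ealb_Met_P6_D3_SP6_2090528 was the one probe of the 4 that was well above background on all 6 arrays. Its processed intensity was 7.51, 7.37 and 8.47 with Ag-NP and 15.9, 27.2 and 28.4 with AgNO3. Its log2 levels were -5.93, -6.47 and -6.70 with Ag-NP, against -5.35, -3.91 and -4.29 with AgNO3. The groups did not overlap, though Ag-NP replicate 1 and AgNO3 replicate 1 were close to each other. The level was 3.60-fold lower with Ag-NP (adjusted p = 0.0345). Without AgNO3 replicate 3 the difference of -1.73 log2 units did not pass (adjusted p = 0.093).

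The forms lay together on 2 slides. As measured, the groups of these probes do not overlap, so the direction on each slide is fixed and only the sizes vary. On slide 1 the forms were in different scans, and on slide 3 they shared a scan. Contig11 differed by 2.89 log2 units on slide 1 (mean of 2 Ag-NP arrays minus 1 AgNO3 array) and by 2.15 on slide 3 (1 array of each). P2_5A_T7_1328919 differed by 2.03 on slide 1 and 2.11 on slide 3. Ealb_Met_P8_C1_SP6_2090691 differed by -2.38 and -3.10, and Ealb_Met_P6_D3_SP6_2090528 by -0.84 and -2.42. With slide as a block, Ealb_Met_P8_C1_SP6_2090691 alone passed (adjusted p = 0.0411), while Contig11 had an adjusted p of 0.0888 and the remaining probes one of 0.138. Over all alternatives but the single slides, the adjusted p ran from 0.000261 to 0.78 for Contig11, from 0.000261 to 0.978 for P2_5A_T7_1328919, from 6.32e-06 to 0.633 for Ealb_Met_P8_C1_SP6_2090691 and from 0.00018 to 0.753 for Ealb_Met_P6_D3_SP6_2090528. Within slide 3 alone none passed in limma (8 of 446 at an unadjusted p below 0.05), with the spread taken from the Ag-NP 100 mg/kg arrays, the one group with replicates there. Within slide 1 alone 33 were higher and 9 lower, with the spread taken from the 2 Ag-NP 200 mg/kg arrays. These single-slide fits assume that a lone array varies like the replicated group, so their counts say little about the calls. With the scan as a block, an alternative added after the data were seen, the limma count was 0, with 96 probes at an unadjusted p below 0.05.

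Against clean soil, the probes that were higher with Ag-NP were lower with AgNO3. These comparisons share arrays, so their values are given side by side only. Contig11 was at -0.81 ± 0.60 log2 units (SE) with Ag-NP at 200 mg/kg relative to clean soil, which did not pass (adjusted p = 0.70), and fell by 3.91 ± 0.60 with AgNO3 at 200 mg/kg as measured (adjusted p = 0.00575). With the undetected AgNO3 arrays at the floor, that difference was -2.90. P2_5A_T7_1328919 was at -0.16 ± 0.43 with Ag-NP relative to clean soil (adjusted p = 0.965). With the AgNO3 arrays at the floor it was 2.00-fold lower than in clean soil. This is no strict bound, since clean-soil replicate 3, on which it was not detected, entered as measured. The measured difference was -2.21 ± 0.43 (limma, adjusted p = 0.0132). For both of these the Ag-NP mean was thus the nearer to clean soil. No AgNO3 array measured P2_5A_T7_1328919 well above background, and in clean soil 2 of 3 arrays did.

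The 2 probes that were lower with Ag-NP had means below clean soil with Ag-NP and above it with AgNO3. Ealb_Met_P8_C1_SP6_2090691 was at -1.53 ± 0.41 log2 units (SE) with Ag-NP relative to clean soil (adjusted p = 0.357) and at 1.11 ± 0.41 with AgNO3 (adjusted p = 0.0926). Ealb_Met_P6_D3_SP6_2090528 was at -1.29 ± 0.39 with Ag-NP (adjusted p = 0.357) and at 0.56 ± 0.39 with AgNO3 (adjusted p = 0.337). None of these 4 values passed. In the same fit 0% of the 446 probes passed for Ag-NP at 200 mg/kg against clean soil (limma, 38 at an unadjusted p below 0.05, 8.52%). For AgNO3 at 200 mg/kg 8.07% passed, 4.26% higher and 3.81% lower than in clean soil, and 142 (31.8%) had an unadjusted p below 0.05.

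**Figure D2:**
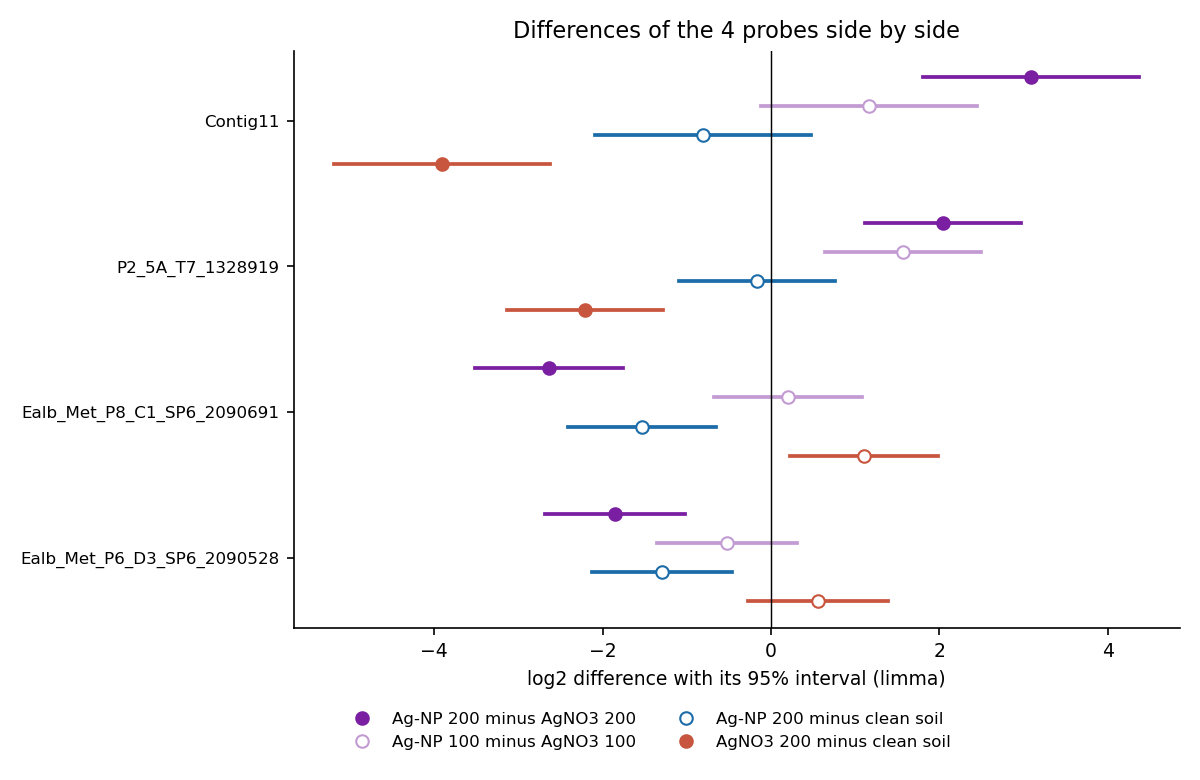
Log2 differences of the 4 probes with 95% intervals from limma, between forms at 200 and at 100 mg/kg and for each form at 200 mg/kg against clean soil. Filled points had an adjusted p below 0.05. The 4 probes were chosen by the comparison between forms at 200 mg/kg, so its intervals lie to one side of 0 by choice. Against clean soil only Contig11 and P2_5A_T7_1328919 with AgNO3 passed the adjusted threshold. Without passing it, Ealb_Met_P8_C1_SP6_2090691 with either form and Ealb_Met_P6_D3_SP6_2090528 with Ag-NP also had intervals to one side of 0.

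Across the concentrations, Contig11 had log2 levels of -3.06 ± 0.21 in clean soil, -4.06 ± 1.30 with Ag-NP and -5.22 ± 0.58 with AgNO3 at 100 mg/kg, and -3.87 ± 0.10 with Ag-NP and -6.97 ± 1.08 with AgNO3 at 200 mg/kg (mean ± SD, n = 3 each). P2_5A_T7_1328919 had -5.04 ± 0.24 in clean soil, -4.86 ± 1.05 with Ag-NP and -6.43 ± 0.21 with AgNO3 at 100 mg/kg, and -5.20 ± 0.39 with Ag-NP and -7.25 ± 0.25 with AgNO3 at 200 mg/kg. For Contig11 the measured AgNO3 mean was lower at each step of concentration, and steps were not tested. With the undetected arrays at the floor, its AgNO3 200 mg/kg mean was -5.96, nearer to the 100 mg/kg mean. The floor of AgNO3 200 mg/kg replicate 3, -5.03, lay above AgNO3 100 mg/kg replicates 2 and 3 (-5.25 and -5.79). For P2_5A_T7_1328919 the mean floor of the AgNO3 200 mg/kg arrays, -6.04, lay above the AgNO3 100 mg/kg mean, so no fall between these means was measured. By array the floor was -7.02, -6.07 and -5.03 (replicates 1, 2 and 3). That of replicate 1 lay below all AgNO3 100 mg/kg arrays (-6.65 to -6.24), and those of replicates 2 and 3 above them. Ealb_Met_P8_C1_SP6_2090691 had -4.86 ± 0.38 in clean soil, -4.32 ± 0.56 with Ag-NP and -4.52 ± 0.45 with AgNO3 at 100 mg/kg, and -6.39 ± 0.75 with Ag-NP and -3.75 ± 0.05 with AgNO3 at 200 mg/kg. Ealb_Met_P6_D3_SP6_2090528 had -5.07 ± 0.22 in clean soil, -5.01 ± 0.12 with Ag-NP and -4.50 ± 0.49 with AgNO3 at 100 mg/kg, and -6.37 ± 0.40 with Ag-NP and -4.52 ± 0.75 with AgNO3 at 200 mg/kg. In these 2 probes the Ag-NP 200 mg/kg arrays were lower than all 12 arrays of the other groups.

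None of the 4 probes passed between forms at 100 mg/kg, where 1.12% of the tested probes did, 0.448% higher and 0.673% lower with Ag-NP, and 9.64% had an unadjusted p below 0.05. The difference there was 1.57 ± 0.43 log2 units (SE) for P2_5A_T7_1328919 (adjusted p = 0.136), 1.16 ± 0.60 for Contig11 (adjusted p = 0.633), 0.21 ± 0.41 for Ealb_Met_P8_C1_SP6_2090691 and -0.52 ± 0.39 for Ealb_Met_P6_D3_SP6_2090528 (both adjusted p = 0.987). Whether the difference between forms itself changed with concentration was tested as an interaction. No probe passed it in limma, while 37 of 446 (8.3%) had an unadjusted p below 0.05. The smallest adjusted p was 0.102, for Ealb_Met_P8_C1_SP6_2090691, whose difference between forms at 200 minus that at 100 mg/kg was -2.84 ± 0.58 log2 units (SE).

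Beyond these 4, many probes lay apart between the forms without passing the adjusted test. Of the 446 tested probes 138 had an unadjusted p below 0.05, which is 30.9%, with 88 higher and 50 lower with Ag-NP. Among the 247 probes well above background on all 6 arrays, the split was 39 higher and 38 lower. All 3 arrays of one form lay beyond all 3 of the other for 209 probes (46.9%), 103 of them higher and 106 lower with Ag-NP. Among the 396 probes described, 128 (32.3%) had an unadjusted p below 0.05 in limma and 186 (47.0%) did not overlap between the forms. They make up most of the tested probes, so their shares must lie close to those over all. Among the other 50 tested probes these were 10 (20%) and 23 (46%), with a median log2 difference of -0.75. A further 28 probes had an adjusted p between 0.05 and 0.1, 18 of them higher and 10 lower. The median log2 difference was 0.02 (0.10 over the 396 probes described), the quartiles were -0.70 and 0.76, and the median standard error was 0.45. Other scalings put the median over all tested probes at -0.15 to 0.54, and the normexp correction put it at -0.26. Directions thus hold only relative to the scaling used, the 75th percentile of the 227 probes detected on all arrays. Differences beyond 2-fold were measured for 82 probes on the higher and 62 on the lower side, and among the 247 probes detected on all 6 arrays for 38 on the higher and 43 on the lower side. A difference as large as 2-fold lay outside the 95% interval for 51 probes (11.4%), and one as large as 4-fold for 291 (65.2%).

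**Figure D3:**
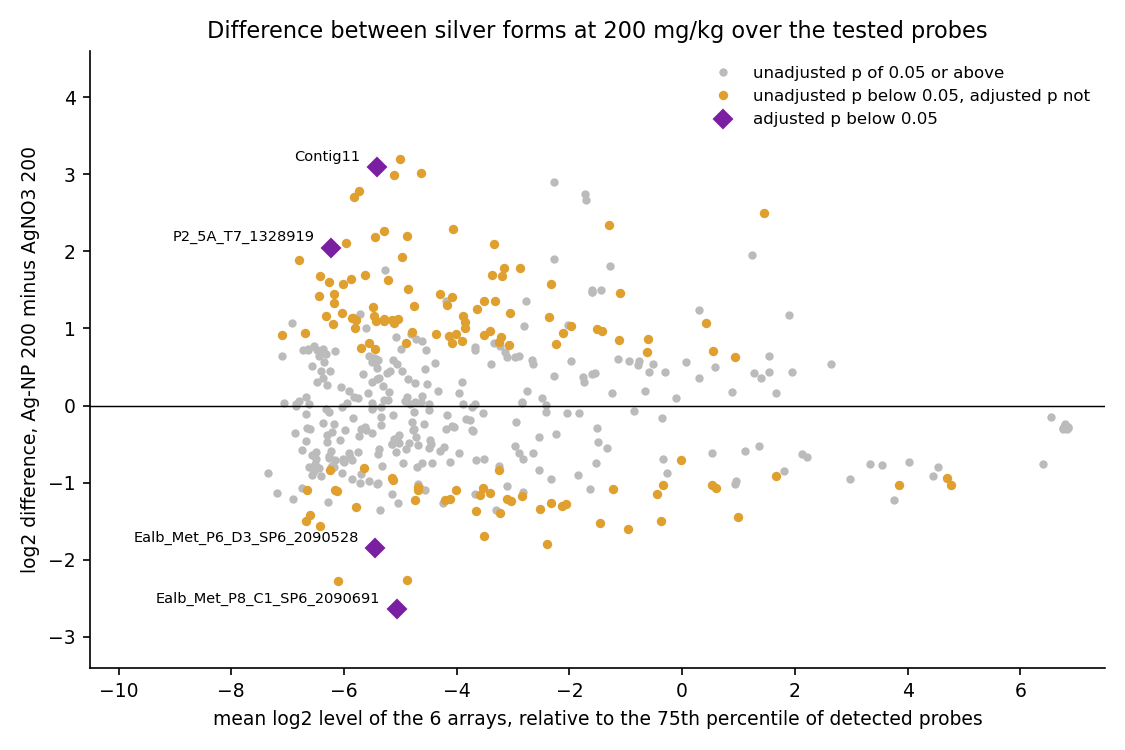
Log2 difference between the forms at 200 mg/kg against the mean log2 level of the 6 arrays for the 446 tested probes. The 4 probes past the adjusted threshold lie in the dimmer part of the range, and the other probes with an unadjusted p below 0.05 are spread over both directions.

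Over the 446 probes the root mean square distance between an Ag-NP and an AgNO3 array was 0.88 to 1.57 log2 units (9 pairs, median 1.26). It was 0.51 to 0.93 between Ag-NP arrays (3 pairs) and 0.61 to 1.13 between AgNO3 arrays (3 pairs), so the ranges overlapped. The pair with the smallest distance between forms was Ag-NP replicate 1 with AgNO3 replicate 3, and that with the largest was Ag-NP replicate 3 with AgNO3 replicate 1. On the first principal component of all 15 arrays, which held 47.0% of the variance, the Ag-NP 200 mg/kg arrays scored -0.14 to 0.04 and the AgNO3 200 mg/kg arrays 0.21 to 0.48. The arrays from clean soil spread from -0.30 to 0.13 on it. Those at 100 mg/kg spread from -0.52 to 0.17 with Ag-NP and from -0.37 to 0.21 with AgNO3. The brightest arrays of the study, with 75th percentiles of 54.3, 45.3 and 44.5, had the lowest scores, -0.37, -0.30 and -0.52. Whether brightness took part in this component was not tested.

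**Figure D4:**
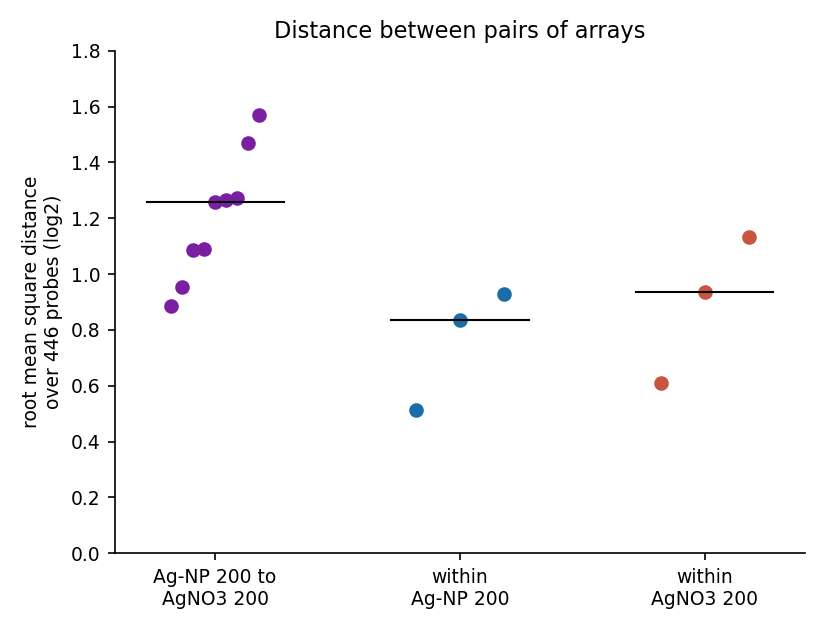
Root mean square distance over 446 probes (log2 units) for each pair of arrays, sorted within a column, with a line at the median. Pairs across the forms reach 1.57, and the lower ones overlap with the pairs within a form.

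Of the 396 probes described, 247 were well above background on all 6 arrays, 147 on all 3 Ag-NP but not all 3 AgNO3 arrays, and 2 the other way round. AgNO3 replicate 3, the array of high negative-control spread, missed 145 of the 147, and 95 of them were missed on it alone. The part of its high background in this was not tested. The 2 probes detected on all AgNO3 arrays and on 2 Ag-NP arrays were Ealb_Met_P8_C1_SP6_2090691 and P3_E8_T7_1329707. The second of these is named after its values were seen, and its difference of -2.26 log2 units did not pass (adjusted p = 0.0746). A set of 14 probes was well above background on all 3 Ag-NP and on no AgNO3 array at 200 mg/kg, and 0 showed the opposite. P2_5A_T7_1328919 was one of these 14 and the only one that passed. Of the 14, the number detected on all 3 arrays was 0 in clean soil (12 on 2 or more), 1 with Ag-NP at 100 mg/kg and 9 with AgNO3 at 100 mg/kg. Because such probes entered through the group in which they were bright, their direction follows from the choice. A set of 12 probes had a saturated spot on all 6 arrays, none of them among the 4.

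By their names the probes were sorted into kinds after the names had been read. Of the 4 probes that passed, 1 was among 91 tested Contig probes, 2 were among 167 tested Ealb_Met probes and 1 among 82 tested probes with T7 in the name and no prefix. None was among 70 Ealb_Pest probes (limma, 18 at an unadjusted p below 0.05) or among 36 with SP6 and no prefix (12 at an unadjusted p below 0.05). The share at an unadjusted p below 0.05 was 20.9% of Contig probes, 33.5% of Ealb_Met, 25.7% of Ealb_Pest, 33.3% of unprefixed SP6 and 40.2% of unprefixed T7 probes, beside 30.9% over all. The median log2 difference was -0.21 for Contig, -0.07 for Ealb_Met, 0.35 for Ealb_Pest, 0.19 for unprefixed SP6 and 0.28 for unprefixed T7 probes, beside 0.02 over all. What the prefixes stand for is not stated in these sources.

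The number of probes past the threshold depended on which arrays entered the fit. Between replicates, the SD of a probe had a median of 0.38 log2 units with Ag-NP and 0.33 with AgNO3 at 200 mg/kg, but 0.65 with Ag-NP and 0.49 with AgNO3 at 100 mg/kg and 0.51 in clean soil, and the fit pooled all of them. With only the 6 arrays of the comparison 72 probes passed, 37 higher and 35 lower, with all 4 among them. Leaving out Ag-NP 200 mg/kg replicate 1 gave 39, and leaving out its replicate 2 or 3 gave 0 (limma, 71 and 73 at an unadjusted p below 0.05). The count was 2 without AgNO3 200 mg/kg replicate 1, 1 without its replicate 2 and 2 without its replicate 3. It was 1 without control replicate 2 or 3 or AgNO3 100 mg/kg replicate 2, 2 without AgNO3 100 mg/kg replicate 1, and 7 and 8 without Ag-NP 100 mg/kg replicates 1 and 2. Ealb_Met_P8_C1_SP6_2090691 lost the threshold only without Ag-NP 200 mg/kg replicate 2 (adjusted p = 0.0695) or 3 (0.0671) among the 15 arrays left out in turn. The other 3 were lost without Ag-NP 200 mg/kg replicate 2 or 3, AgNO3 200 mg/kg replicate 2, control replicate 2 or 3 or AgNO3 100 mg/kg replicate 2, with adjusted p-values of 0.05 to 0.229, and in part without other arrays. In these fits the differences ranged from 2.52 to 3.58 log2 units for Contig11, 1.87 to 2.25 for P2_5A_T7_1328919, -3.07 to -2.42 for Ealb_Met_P8_C1_SP6_2090691 and -2.27 to -1.55 for Ealb_Met_P6_D3_SP6_2090528.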

How the data were processed

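Cy3-labelled cRNA of 15 whole-body samples was hybridised to 1-colour arrays. The processed intensity of each spot in the deposited scanner output was background-subtracted within its array and not scaled between arrays, by Agilent Feature Extraction 10.5.1.1 (per the file headers and the submitters' processing notes). The authors' deposited series table holds log2 values per spot whose columns share one median, and no source used here names the normalization.

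Outlier-marked and control spots were left out, log2 intensity was averaged per probe, and arrays were scaled to the 75th percentile of the 227 probes detected on all arrays. An earlier analysis of these data used the percentile of all spots, which was tried as an alternative. Differences were tested with limma 3.58.1 (R 4.3.3) over 446 probes and all 15 arrays, with 10 residual degrees of freedom. Probes named were those past the threshold, where 5 or fewer. The probes, groupings and tests were chosen with earlier results of these data known. No gene table was used, so planned gene lists were not tested. The files lack the mean spot signal, so normexp used the median. The limma fit was checked on simulated data with independent noise, the same spread of a probe in all groups and no slide or scan effect. That check does not bear on the unequal spreads of these groups or on slides and scans, and lends the calls no weight. The number of arrays limits the precision. The limma p-values set each difference against a spread between replicate arrays pooled over all groups. Replicates lay partly on different slides and scans, so that spread is not biological alone.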

Additional observations from a re-analysis of the deposited data

How the results depend on the processing

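Of 38 alternatives, 10 gave a count within 1.5 times the 4 probes reported. Among filters, 7 probes (1 higher, 6 lower) passed without one, 0 of 247 passed among probes detected on all 6 arrays (limma, 81 at an unadjusted p below 0.05) and 22 (19 higher, 3 lower) where every spot had to be above background, which also changed the probes used for scaling. Among scalings and corrections, 27 (9 higher, 18 lower) passed with quantile normalization, 11 (10 higher, 1 lower) in the authors' deposited values, 1 (higher) with spike-in scaling, and 0 with normexp (limma, 35 at an unadjusted p below 0.05), whose offset of 50 exceeds most signals of the 4 probes. P2_5A_T7_1328919 then turned to -0.0178 log2 units. With the 75th percentile of all spots 5 passed (3 higher, 2 lower), the fifth being Ealb_Met_P4_A3_T7_2175248 (adjusted p = 0.0746 as reported). With the median scaling 1 was higher and 2 lower. The median difference was 0.21 with all spots, -0.15 with the median, 0.54 with spike-ins, -0.26 with normexp 0.41 in the authors' values, 0.21 with every spot required, -0.66 over all 1035 probes and -0.17 over the 247 detected on all 6 arrays. With brightness as a covariate 85 passed, with array weights 256 (weights 0.231 to 3.45, estimated gene by gene because the default estimate did not converge), with the 6 arrays alone 72, and on slide 1 alone 42. Slide 3 alone gave 0 (limma, 8 at an unadjusted p below 0.05). On each of these slides at least 1 form had 1 array, assumed to vary like the replicated group there. The slide as a block gave 1 and the scan day as a block 2. The scan as a block gave 0 (limma, 96 at an unadjusted p below 0.05), and leaving out the 3 arrays of highest negative-control spread 7 (6 higher, 1 lower), both added after the data were seen. Leaving out each array in turn gave 0 to 39. Same-numbered arrays of the 2 groups had deviations correlating at 0.11, -0.42 and 0.26. Centred within groups of 3, these are not independent and cannot decide whether the numbers pair the arrays. The replicate block gave 4 (2 higher, 2 lower), 3 of them shared. The interaction stayed at 0 under its 4 alternatives (smallest adjusted p 0.152). Causes were not tested. Contig11, P2_5A_T7_1328919 and Ealb_Met_P8_C1_SP6_2090691 could not be tested among probes detected on all 6 arrays. Low signal over background limits how well the sizes of the differences are known.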
